A study of Mus musculus with 6 samples.

Results

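p53 (Trp53) and 9 of its best known target genes and regulators, Mdm2, Mdm4, Ccng1, Sesn1, Sesn2, Trp53inp1, Gadd45a, Zmat3 and Phlda3, were compared between tumor cells with and without an inhibitor of Group I Paks. The genes were chosen by name for their place in the p53 pathway, with earlier results of these data known. All 10 were found among the 21966 genes of the table. RNA-seq had been performed on primary cells grown out of colon adenomas, with 3 lines of each genotype and 3 samples per condition. By the methods, PID- cells came from mice with the CDX2P-NLS-Cre transgene and the APC^Δ/+ deletion. PID+ cells came from littermates that had the ROSA26-PID allele as well. Both conditions would then carry the Cre transgene and the deletion in Apc, and differ by the PID allele and also by mouse and line. With pooled values, a difference due to the allele cannot be told apart from one between lines. PID is a GST-tagged peptide from the autoinhibitory domain of Pak1, placed at the Rosa26 locus with an eGFP reporter and switched on by Cre, and the Cre and Apc mice were C57BL6/J. Cre is driven by the Cdx2 promoter and acts in the lining of the lower gut, and the cells were grown in RPMI-1640 medium with serum, away from the tissue around the tumor. The lines came from the tumor cohorts of these genotypes, which were followed to 8 months of age, and the age of the mouse behind each line is not given in the sources used here. The labels number the PID+ mice 4, 7 and 26 and the PID- mice 1, 2 and 3. These PID- numbers differ from those of the PID- lines in the study's other experiments, so which PID- lines were sequenced is not known. They call the PID- samples normal and untreated, although by the methods these are tumor cells with the Apc deletion, and the methods speak of repeated sequencing runs where the labels name mice.

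The authors merged the reads of the 3 samples of each condition. Each gene thus has 1 pooled FPKM per condition with a confidence interval from CuffDiff. FPKM is the number of fragments relative to transcript length and to all fragments compatible with the annotated transcripts. There is no replicate check on any difference, and no p-value is given. Changes are log2 ratios of FPKM + 1, PID+ over PID-, which understate the change of genes with low FPKM. A gene is said to rise or fall where FPKM + 1 differed at least 2-fold. In bulk RNA, fewer cells of a type and less RNA per cell cannot be told apart. The low values of genes with 1 transcript fell on steps, as whole reads would give. Within 0.1 of a whole number lay 90.5% of 800 such values in PID+ cells and 90.9% of 757 in PID- cells, where values without steps would give 20%. The FPKM that 1 read adds was 1.38 times as large in PID+ cells as in PID- cells, a ratio that combines depth with the authors' scaling, and the depth itself is unknown. From the longest transcript of each gene, the 10 genes had between about 503 (Sesn1, PID+) and 68916 (Ccng1, PID-) reads, which are approximate where a gene has several transcripts.

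p53 is a transcription factor that is kept scarce by the ubiquitin ligase Mdm2 and its partner Mdm4, and that accumulates after DNA damage or oncogenic stress. It then turns on genes for cell cycle arrest, DNA repair, antioxidant defence and apoptosis, and also Mdm2 itself, which closes a negative feedback loop. In the intestine, loss of Apc starts adenomas, and loss of p53 is typical of the later step to carcinoma. Since p53 is controlled largely through its stability and modification, the amount of its mRNA does not give its activity.

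The cells were first checked for their tissue of origin. Of 8 epithelial markers, the FPKM summed to 8809 in PID+ cells and 4886 in PID- cells, and the keratin Krt19 had the highest mean, with an FPKM of 2469 and 2073. In PID+ cells 5 of the 8 rose (Epcam, Cdh1, Krt8, Krt18 and Krt20) and 1 fell (Cdx2), beside 3.31% and 3.77% of all genes, with a median log2 change of 1.08. With equal Gapdh only Epcam was 2-fold higher, beside 259 of all 21959 genes, and the median was 0.45. With equal total FPKM 3 were 2-fold higher, beside 617 of all genes. Epcam, an adhesion protein of epithelial cells, stood at 401 FPKM in PID+ cells and 124 FPKM in PID- cells. Vil1, the villin of the brush border, was close to 0 in both conditions, with an FPKM of 0.175 and 0.0614. Its intervals reached up to 2.71 in PID+ cells and 1.03 in PID- cells, and it shares exon positions with Usp37 in the annotation. Cdx2, the intestinal transcription factor whose promoter drives the Cre, stood at 0.542 FPKM in PID+ cells and 8.04 FPKM in PID- cells. Krt20, a keratin of differentiated intestinal epithelium, stood at 158 FPKM in PID+ cells and 73.5 FPKM in PID- cells. The cells thus had keratins, Epcam and Cdh1 of an epithelium, with Krt20 present in both conditions, Vil1 near 0 in both, and Cdx2 low in PID+ cells.

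Most markers of other cell types were under 5 FPKM. Above it were Cd68 in both conditions, and Col1a1, Col1a2, Col3a1 and Acta2 in PID- cells. Of 8 fibroblast genes, the FPKM summed to 3.005 in PID+ cells and 34.1 in PID- cells, with Col1a1 the most abundant (2.32 and 11.9), Lum at 0 in both conditions, and Dcn and Thy1 at 0 in PID+ cells. Of these 8, 4 fell (Col1a1, Col1a2, Col3a1 and Dcn) and none rose, beside 3.77% and 3.31% of all genes, with a median log2 change of -1.31. With a pseudocount of 0.1, 6 of the 8 were 2-fold lower, beside 1523 of all 21959 genes. Col1a2 had an FPKM of 0.0654 and 11.9 and was the only gene of the 5 marker lists whose intervals were apart. Of 5 leukocyte genes, the sum was 21.9 and 16.9, nearly all of it from the lysosomal protein Cd68 (21.8 and 16.8). Cd3e was at 0 in both conditions, and Ptprc, which marks all leukocytes, had 0.0264 and 0.00811. The 4 endothelial genes summed to 3.66 and 1.12, with Kdr the most abundant (3.33 and 1.01). Of these 4, Kdr rose (log2 change 1.11, and 0.65, under 2-fold, with equal Gapdh) and none fell, beside 3.31% and 3.77% of all genes. With a pseudocount of 0.1, 2 of the 4 were 2-fold higher, Kdr and Cdh5, beside 1434 of all 21959 genes. Cdh5 was near 0, on an estimated 57 reads in PID+ cells and 1 in PID- cells. The 4 muscle genes summed to 4.75 and 10.03, with Acta2 the most abundant (4.39 and 9.76). None passed 2-fold, beside 3.31% higher and 3.77% lower among all genes. Acta2 was just under 2-fold lower, and past it with equal Gapdh (-1.48), equal total FPKM (-1.08), a pseudocount of 0.1 (-1.14) or the chromosome median subtracted (-1.03). None of the endothelial or muscle genes was at 0 in both conditions. By FPKM, fibroblast and muscle sums were thus lower, and epithelial, leukocyte and endothelial sums higher, in PID+ cells. The leukocyte direction rests on the scaling, since Cd68 was at -0.24 with equal Gapdh. The part of these sums in the result was not tested.

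Across the 10 genes, 1 rose in PID+ cells (Mdm2) and 1 fell (Gadd45a). Among all 21959 genes with usable values, 3.31% were higher in PID+ cells by 2-fold or more and 3.77% lower, and among the 9341 expressed genes, those whose mean FPKM was 5 or more, 5.01% were higher and 5.2% lower. At 1.5-fold, 1 of the 10 genes was higher and 2 were lower, beside 8.18% and 8.84% of all genes. At 3-fold none was, beside 1.04% and 1.72%. As 1 gene is the least that can be counted in either direction, these counts do not set the 10 genes apart from the table. Their median log2 change was -0.083, with 4 values above 0 and 6 below, beside a median of 0 for all genes and of -0.0012 for the expressed genes. The deposited intervals of the 2 conditions overlapped for each of the 10 genes, whereas they were apart for 0.729% of all genes. With Gapdh set equal, none of the 10 genes was 2-fold higher and 2 were 2-fold lower, Gadd45a and Trp53inp1, beside 259 of all genes higher and 2408 lower in place of 726 and 828. With a pseudocount of 0.1 these counts of all genes were 1434 and 1523. The values of the p53 genes thus lay on both sides of 0, and none was separated by the authors' intervals.

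**Figure D1:**
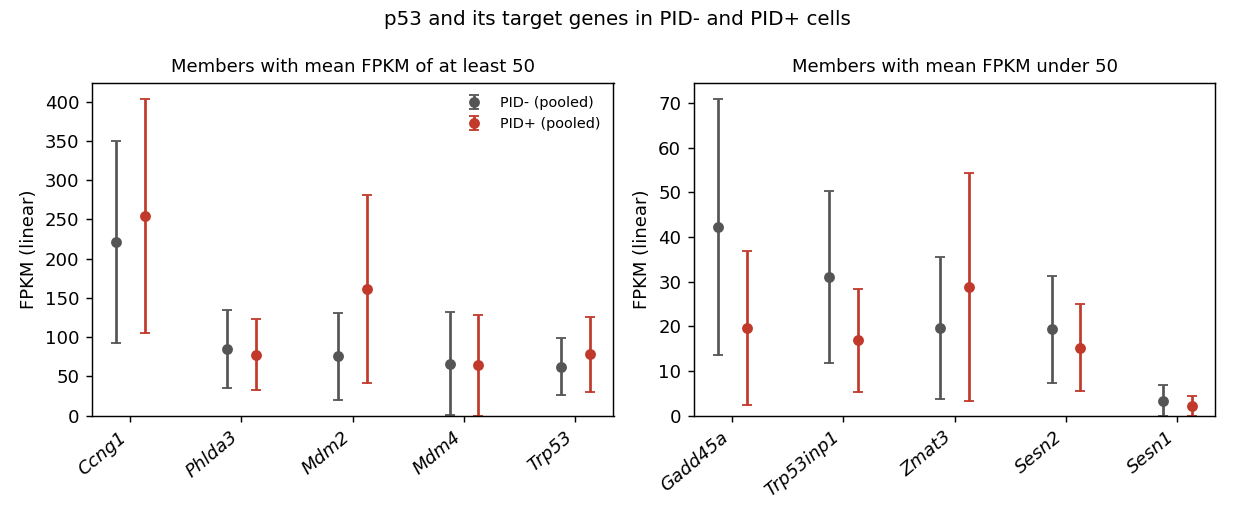
Pooled FPKM (linear axes) of p53 and its 9 listed partners in PID- (grey) and PID+ (red) cells, ordered by FPKM in PID- cells, with the deposited confidence interval of each value as a bar and separate axes for genes above and below a mean FPKM of 50. Mdm2 was higher (161 against 75.5) and Gadd45a lower (19.6 against 42.3) in PID+ cells by at least 2-fold, and the bars of the 2 conditions overlap for every gene shown. With Gapdh set equal, Mdm2 stayed above 0 at a log2 change of 0.46, under 2-fold, and Gadd45a was at -1.66.

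Trp53 itself (ENSMUSG00000059552.10, plus strand of GRCm38, chr11:69580359-69591873) had an FPKM of 78.0 in PID+ cells, with an interval from 30.4 to 125, and of 62.4 in PID- cells, with an interval from 25.96 to 98.9. Its log2 change was 0.32, which became -0.30 when Gapdh was set equal. The mRNA of p53 was thus present in both conditions at a level above that of most expressed genes, at percentile 87.8 in PID+ and 84.8 in PID- cells among the 9341. Its direction rests on the scaling, since Gapdh, the control gene of many qPCR assays, stood at 2570.3 FPKM in PID+ cells and 1666 FPKM in PID- cells. Setting Gapdh equal lowers the median of the 9341 genes to -0.58, and changes under that scaling are to be read against this shift.

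The main negative regulators of p53 differed from each other. Mdm2 (ENSMUSG00000020184.11, minus strand, chr10:117688875-117710758), the ubiquitin ligase that targets p53 for degradation and a direct target of p53, rose from an FPKM of 75.5 in PID- cells (interval 19.8 to 131) to 161 in PID+ cells (interval 41.7 to 280.4). Its log2 change of 1.08 was the highest of the 10 genes, and was 0.98 with equal total FPKM and 0.46 with equal Gapdh, both under 2-fold. Mdm4 (ENSMUSG00000054387.10, minus strand, chr1:132959484-133030561), the relative of Mdm2 that blocks the transactivation domain of p53, had an FPKM of 63.9 in PID+ cells (interval 0 to 128) and 65.9 in PID- cells (interval 0.186 to 132). The change of Mdm4 was -0.044, and was -0.018 with equal upper quartiles and -0.66 with equal Gapdh. Mdm2 was thus 2.13 times as abundant in PID+ cells as in PID- cells by FPKM, while the FPKM of Mdm4 was nearly equal.

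Among the target genes of growth control, Ccng1 was the most abundant and Gadd45a the one that fell. Ccng1 (ENSMUSG00000020326.7, minus strand, chr11:40748552-40755311) encodes cyclin G1, which recruits the phosphatase PP2A to Mdm2. It had an FPKM of 255 in PID+ cells (interval 106 to 404) and 221 in PID- cells (interval 92.9 to 349.9), with a log2 change of 0.20 that became -0.42 with equal Gapdh. Gadd45a (ENSMUSG00000036390.6, minus strand, chr6:67035096-67037457), a small stress protein that acts in G2 arrest and DNA repair, fell from an FPKM of 42.3 in PID- cells (interval 13.6 to 70.9) to 19.6 in PID+ cells (interval 2.42 to 36.9). Its log2 change of -1.07 was the lowest of the 10 genes, and was -1.66 with equal Gapdh, which multiplies each PID+ value by 0.648 and can only lower it. Gadd45a lies on chromosome 6, where 413 genes had a median of 0.34, and with that median subtracted its change was -1.41.

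The sestrins restrain mTORC1 and take part in the defence against oxidative stress. Sesn1 (ENSMUSG00000038332.9, plus strand, chr10:41809935-41908424) was the least abundant of the 10 genes, with an FPKM of 2.04 in PID+ cells (interval 0 to 4.41) and 3.32 in PID- cells (interval 0 to 6.83). Sesn2 (ENSMUSG00000028893.8, minus strand, chr4:132492032-132510501), which also responds to amino acids and the unfolded protein response, had an FPKM of 15.2 in PID+ cells (interval 5.41 to 24.9) and 19.3 in PID- cells (interval 7.38 to 31.2). Both log2 changes were below 0, at -0.51 for Sesn1 and -0.33 for Sesn2. With equal Gapdh they were -0.89 and -0.90. For Sesn2 the value was -0.014 once the median of its chromosome, -0.31, had been subtracted.

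Of the 3 remaining genes, 2 had lower and 1 had higher FPKM in PID+ cells, none by 2-fold. Trp53inp1 (ENSMUSG00000028211.8, plus strand, chr4:11156431-11174379), a stress protein that promotes p53 phosphorylation and autophagy, had an FPKM of 16.8 in PID+ cells (interval 5.35 to 28.3) and 31.1 in PID- cells (interval 11.8 to 50.4). Its log2 change of -0.85 was next to that of Gadd45a, and was -0.53 with the median of chromosome 4 subtracted and -1.43, past 2-fold, with equal Gapdh. Phlda3 (ENSMUSG00000041801.5, plus strand, chr1:135766119-135769136), a pleckstrin homology protein that keeps Akt from the membrane, had an FPKM of 77.8 in PID+ cells (interval 32.1 to 123) and 84.7 in PID- cells (interval 35.4 to 134). The change of Phlda3 was -0.12, and -0.74 with equal Gapdh. Zmat3 (ENSMUSG00000027663.9, minus strand, chr3:32334792-32366014), a zinc finger protein that binds RNA and regulates splicing, had an FPKM of 28.9 in PID+ cells (interval 3.32 to 54.4) and 19.7 in PID- cells (interval 3.78 to 35.6). Its log2 change was 0.53, which became -0.070 with equal Gapdh. The direction of Zmat3 rests on the scaling as those of Trp53 and Ccng1 do.

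By FPKM, a scale that corrects for transcript length, the order of the 10 genes in PID- cells was Ccng1, Phlda3, Mdm2, Mdm4, Trp53, Gadd45a, Trp53inp1, Zmat3, Sesn2 and Sesn1. In PID+ cells it was Ccng1, Mdm2, Trp53, Phlda3, Mdm4, Zmat3, Gadd45a, Trp53inp1, Sesn2 and Sesn1. Ccng1 stayed first and the sestrins last. Of 9 pairs of neighbours in this order, the intervals of 8 overlapped in PID+ cells and of 8 in PID- cells, the exception in both being Sesn2 above Sesn1. None of the 10 genes shares an exon position with another protein coding gene in the annotation, but Trp53 and Mdm4 have processed pseudogenes (Trp53-ps and Mdm4-ps) with which reads could be shared.

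The other regulators of p53 were examined next. Of 24 relatives and regulators of p53, none passed 2-fold in the main comparison, beside 3.31% higher and 3.77% lower among all genes. With such low shares, a count of 0 does not set this list apart. The median log2 change was -0.11, with 8 values above 0 and 16 below. It was -0.65 with equal Gapdh and turned to 0.022 with the chromosome median subtracted. The 3 most abundant were Rpl5, at 967 FPKM in PID+ cells and 1043 FPKM in PID- cells, Rpl11, with 364 and 429, and Cop1, with 67.4 and 87.5. Rpl5 and Rpl11 are ribosomal proteins that bind Mdm2 when ribosome assembly is disturbed, and Cop1 is another ubiquitin ligase of p53. The list ran from -0.94 for Cdkn2a (FPKM 8.91 in PID+ and 18.05 in PID- cells) to 0.70 for Chek1 (19.0 and 11.3). Both were named after their values were seen. A product of Cdkn2a, p19Arf, holds back Mdm2, but the FPKM is that of the whole gene. Chek1 is a kinase of the DNA damage checkpoint. With equal Gapdh 5 of the 24 were 2-fold lower, beside 2408 of all 21959 genes, with Cdkn2a among them at -1.49, and Chek1 was at 0.11. Cdkn2a was at -1.04 with equal total FPKM and -1.01 with a pseudocount of 0.1, both past 2-fold, and at -0.63 with the median of its chromosome subtracted. The relatives Trp63 and Trp73 had an FPKM under 1 in both conditions. Trp63, named after its values were seen, was at -0.20, passed 2-fold with a pseudocount of 0.1 (-1.16), and turned to 0.31 with the median of its chromosome subtracted, on an estimated 8 reads in PID+ cells and 85 in PID- cells.

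A wider set of 47 other p53 targets, also chosen with earlier results of these data known, was described in the same way. In PID+ cells 7 of the 47 rose and 3 fell, beside 3.31% and 3.77% of all genes. Their median log2 change was 0.39, with 37 values above 0 and 10 below, whereas of the 9341 expressed genes 4660 were above 0 and 4681 below. With equal Gapdh the median of the 47 became -0.13, with 18 values above 0, beside a median of -0.58 for the expressed genes, of which 12.8% were above 0. Of the 47, 5 were then 2-fold higher and 4 lower, beside 259 and 2408 of all 21959 genes. The intervals of the conditions overlapped for all 47 genes.

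Within this set, 16 targets of cell cycle arrest and growth control had a median log2 change of 0.63, and of 0.10 with equal Gapdh. Of these 16, 4 rose and 1 fell, beside 3.31% and 3.77% of all genes. With a pseudocount of 0.1, or with the chromosome median subtracted, 5 were 2-fold higher, beside 1434 and 728 of all 21959 genes. Psrc1, a microtubule protein of the spindle, rose from 10.96 FPKM in PID- cells to 52.6 FPKM in PID+ cells (log2 change 2.16). Gtse1, which binds microtubules and moves p53 out of the nucleus, rose from 21.1 to 58.3 (log2 change 1.42). Both act in mitosis, so the name of the list does not describe them. Sfn, the 14-3-3 sigma protein that holds cyclin B and Cdk1 in the cytoplasm, rose from 13.1 to 49.03 (log2 change 1.83). Ptp4a3, a phosphatase linked to colorectal metastasis, rose from 10.1 to 34.97 (log2 change 1.69). These 4 genes stayed above 0 with equal Gapdh, where Gtse1 alone was under 2-fold, at 0.81. Gdf15, a secreted stress cytokine, fell from 78.3 FPKM in PID- cells to 19.2 FPKM in PID+ cells (log2 change -1.97).

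The most abundant genes of this group did not reach 2-fold. Epha2, a receptor tyrosine kinase, stood at 168 FPKM in PID+ cells and 112 FPKM in PID- cells. The change of Epha2, 0.58, became -0.040 with equal Gapdh. Cdkn1a, which encodes the Cdk inhibitor p21 and is the best known target of p53 in cell cycle arrest, had 99.2 and 61.96, and its log2 change of 0.67 was 0.052 with equal Gapdh. Ddit4, an inhibitor of mTORC1, had 59.5 and 101 (log2 change -0.75, and -1.36 with equal Gapdh). Cdkn1a thus lay above 0 with Mdm2, and Ddit4 below 0 with the sestrins.

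Of 16 targets that act in apoptosis and survival, 2 rose and none fell, beside 3.31% and 3.77% of all genes. Their median log2 change of 0.39 became -0.23 with equal Gapdh. Eda2r, a member of the TNF receptor family on chromosome X, rose from 2.88 FPKM in PID- cells to 14.4 FPKM in PID+ cells (log2 change 1.99). Pidd1, the scaffold of the PIDDosome that activates caspase-2, rose from 4.39 to 17.6 (log2 change 1.79). Both stayed above 2-fold with equal Gapdh, at 1.42 and 1.21. The number of genes past 2-fold was 4 with a pseudocount of 0.1, which added the death receptors Fas (1.26) and Tnfrsf10b (1.03), and 3 with equal upper quartiles, which added Tnfrsf10b (1.02). Of all 21959 genes, 1434 and 778 were 2-fold higher in these settings. Fas and Tnfrsf10b were named after their values were seen. The 3 most abundant genes were Rps27l (513 in PID+ and 398 in PID- cells), a ribosomal protein that affects the stability of p53, Perp (161 and 126), a membrane protein of desmosomes, and Bax (108 and 81.7), which opens the outer mitochondrial membrane. Their log2 changes, 0.37, 0.35 and 0.39, were each below 0 with equal Gapdh, and Bax shares exon positions with Gm45808 in the annotation.

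Of 15 targets in DNA repair and metabolism, 1 rose and 2 fell, beside 3.31% and 3.77% of all genes. Their median log2 change of 0.27 became -0.29 with equal Gapdh. Gls2, a mitochondrial glutaminase, rose from 1.11 FPKM in PID- cells to 4.82 FPKM in PID+ cells (log2 change 1.47, and 0.97, under 2-fold, with equal Gapdh), with intervals that reached down to 0 and an exon overlap with Spryd4. Ak1, an adenylate kinase, fell from 9.76 to 2.06 (log2 change -1.81). Ephx1, the microsomal epoxide hydrolase of xenobiotic metabolism, fell from 146 to 50.97 (log2 change -1.50). The 3 most abundant genes were the glutathione peroxidase Gpx1, at 399.7 FPKM in PID+ cells and 438 FPKM in PID- cells, Ephx1, and the sulfatase Sulf2, with 60.8 and 50.2. The log2 change of Gpx1 was -0.13, and that of Sulf2, which overlaps Ncoa3, was 0.27 and became -0.34 with equal Gapdh.

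p53 also lowers many cell cycle genes, since p21 leads to the assembly of the DREAM repressor complex on their promoters. Of 12 such genes, 5 rose in PID+ cells and none fell, beside 3.31% and 3.77% of all genes and 5.01% and 5.2% of the expressed genes, and all 12 had a log2 change above 0, from 0.58 to 1.33, with a median of 0.97. With equal Gapdh 11 of 12 stayed above 0, Ccnb2 being the exception at -0.035, and the median was 0.36. None was then 2-fold higher, beside 259 of all 21959 genes. With the chromosome median subtracted all 12 stayed above 0 and 2 were 2-fold higher, Bub1 (1.02) and Ccnb1 (1.19), beside 728 of all 21959 genes. Foxm1 (0.99), Ccna2 (0.96), Mki67 (0.95) and Plk1 (0.88) were then under 2-fold. The list was chosen with earlier results of these data known, and Ccnb1 and Ccnb2 were named after their values were seen. Foxm1, a transcription factor of G2 and mitosis, rose from 26.96 FPKM in PID- cells to 69.5 FPKM in PID+ cells (log2 change 1.33), and it overlaps Tex52 and Gm44596 in the annotation. The other genes that rose were Ccna2, the cyclin of S phase and G2 (1.21, overlapping Exosc9), the proliferation marker Mki67 (1.20), the mitotic kinase Plk1 (1.12) and the spindle checkpoint kinase Bub1 (1.10). The most abundant were topoisomerase Top2a, at 257 FPKM in PID+ cells and 138 FPKM in PID- cells, Cdk1, with 231 and 127, and survivin (Birc5), with 103 and 54.1. Cdkn1a and the genes repressed through its product thus both had higher FPKM in PID+ cells, a direction that equal Gapdh turns for Ccnb2 and leaves at 0.052 for Cdkn1a. The paper reported the opposite direction for growth itself. Proliferation was lower in PID+ lines by an MTT assay, and adenomas of PID+ mice had fewer Histone H3-positive cells. The reason for this difference from the mRNA was not tested.

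**Figure D2:**
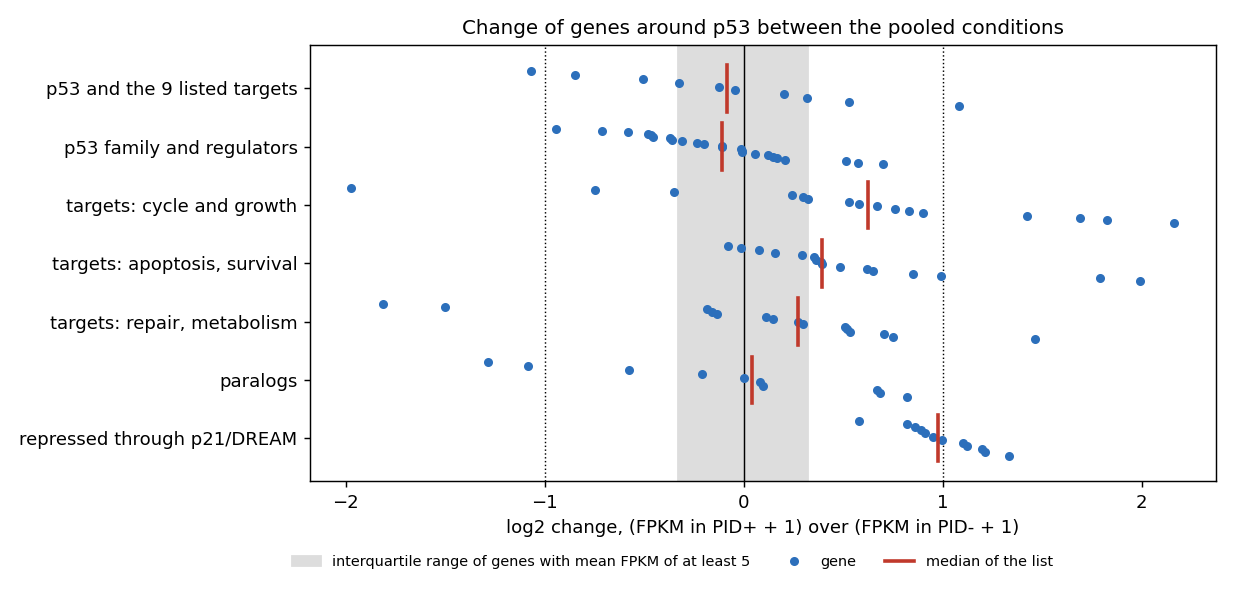
Log2 change in FPKM + 1 between PID+ and PID- cells for each gene (blue points) of 7 lists around p53, with the median of each list (red bar), 2-fold in either direction (dotted lines) and the interquartile range of the 9341 expressed genes, from -0.33 to 0.32 (grey band). The 10 named p53 genes spread to both sides with a median of -0.083, while all 12 genes repressed through p21 and DREAM lie above 0, of which Ccnb2 falls to -0.035 with equal Gapdh.

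The promoters of the 10 genes were searched for the decamer to which a pair of p53 subunits binds, the p53 half-site (3 purines, C, 2 bases that are A or T, G, 3 pyrimidines). The decamer reads as itself on the other strand, so a search of 1 strand covers both. In windows of 250 bases before to 50 bases after the start of transcription (RefSeq, GRCm38.p6), 5 of the 8 genes with an entry held a decamer, namely Trp53, Mdm2, Ccng1, Sesn1 (at the second of its listed starts) and Gadd45a, and Mdm4, Sesn2 and Phlda3 held none. Trp53inp1 and Zmat3 had no entry. Among all 27025 genes with an entry, 9.55% held a decamer, and among the other p53 targets 10 of 39. Cdkn1a held 2 decamers, both at the first of its listed starts. Of the 2 genes that passed 2-fold, Mdm2 rose and Gadd45a fell, and both held a decamer. They are shown with Trp53, Ccng1, Sesn1 and 1 of the 2 decamers of Cdkn1a, the one nearer its start, each as 30 bases read along the strand of the gene, with the decamer in capitals:
Trp53, plus strand, chr11:69580274-69580303: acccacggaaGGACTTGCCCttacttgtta
Mdm2, minus strand, chr10:117710925-117710954: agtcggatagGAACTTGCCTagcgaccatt
Ccng1, minus strand, chr11:40755452-40755481: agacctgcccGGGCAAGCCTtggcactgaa
Sesn1, plus strand, chr10:41887256-41887285: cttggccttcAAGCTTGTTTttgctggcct
Gadd45a, minus strand, chr6:67037428-67037457: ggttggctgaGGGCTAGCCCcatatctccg
Cdkn1a, plus strand, chr17:29090918-29090947: tggccttcagGAACATGTCTtgacatgttc

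A decamer is a match of letters, not a measured site, and the absence of a match says only that these letters are not in the window. The known p53 elements of Mdm2 and Gadd45a lie in introns, outside these windows.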

How the data were processed

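RNA was poly A selected and made into libraries with the TruSeq RNA V2 kit, which does not keep strand, so overlapping genes cannot be separated. The authors trimmed reads with cutadapt, aligned them with TopHat and Bowtie2 to GRCm38.p3 and protein coding genes, pooled the reads of each condition, and deposited the gene FPKM from CuffDiff (compatible hits normalization) with the bounds of its confidence intervals. The methods name no release of the annotation and no version of CuffDiff. The intervals cover CuffDiff's error model only. By the labels, the condition named treated is PID+ and the one named untreated is PID-, and the transgene itself was not checked in the table.

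Of 21966 gene identifiers, 21734 matched a symbol, without the version suffix, and 7 genes whose status was not OK in both conditions were left out. Positions, lengths and exon overlaps came from GENCODE M21 (GRCm38). The log2 change used a pseudocount of 1. A call was at least 2-fold. Alternatives were a pseudocount of 0.1, equal total, upper quartile or Gapdh FPKM, the median of expressed genes (mean FPKM of 5 or more) set to 0, the chromosome median subtracted, expressed genes only, 1.5-fold, 3-fold, and intervals that do not overlap. Lists were described by counts and medians beside all genes, and 1 marker gene is not reported here.

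The genes named were the 10 members and, from each pathway list, every gene at least 2-fold changed and with 1 FPKM or more where it was higher (the 6 largest if more) and the 3 with the highest mean FPKM. Cell type markers were outside this rule and were named for passing 2-fold, for being the most abundant of their list, for being at or near 0, or as defining markers. Members and lists were chosen with earlier results of these data known. The step of a read was taken from genes with 1 transcript, as FPKM times the length less 180 bases, the value of 21 tried that left the most whole numbers. Steps from 8 to 30 were searched, a range narrowed after a wider search had returned a fraction of the step visible in the PID+ values. The code for fold changes, calls and the step of a read was tested on simulated data with large planted changes, little noise and a known offset. That checks the code only, and not the error of the values here. Python 3.11.15, numpy 2.4.6, pandas 2.3.3 and matplotlib 3.10.9 were used.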

Additional observations from a re-analysis of the deposited data

How the results depend on the processing

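Of the 10 genes, Trp53, Ccng1 and Zmat3 turned direction, with equal Gapdh only. That scaling lowers PID+ values, so the 6 genes below 0 could not turn with it. Mdm2 ranged from 0.46 to 1.14 and Gadd45a from -1.66 to -1.04. The number of the 10 genes that rose was 1, and 0 with equal total FPKM, with equal Gapdh, at 3-fold, and with intervals that do not overlap. The number that fell was 1, 2 with equal Gapdh and at 1.5-fold, and 0 at 3-fold and with intervals that do not overlap.

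With equal Gapdh the median log2 change was -0.70 for the 10 genes, -0.65 for the regulators of p53, 0.10 for targets of cell cycle arrest and growth control, -0.23 for those of apoptosis and survival, -0.29 for those of DNA repair and metabolism, -0.13 for these targets together, -0.56 for the paralogs and 0.36 for genes repressed through p21 and DREAM. This follows from the scaling, which moves the median of expressed genes from -0.0012 to -0.58. With equal total FPKM the median of the paralogs was -0.057 and that of the targets together 0.29. With the chromosome median subtracted, the regulators were at 0.022 and the targets of cell cycle arrest and growth control at 0.79, and the cause was not tested.

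Since each condition has 1 pooled value per gene, leaving out each sample could not be run. No paired analysis was possible because the values are pooled over the samples of a condition. Over the 10 genes, the distance from the FPKM to its upper bound had a median of 71.2% of the FPKM for PID+ cells and 64.9% for PID- cells, and the intervals of the conditions overlapped for both genes past 2-fold.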

Other observations

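Most of the 10 genes belong to small families, and their paralogs were compared in the same way. Of 10 paralogs, 2 fell in PID+ cells and none rose, beside 3.77% and 3.31% of all genes, with a median log2 change of 0.043 that became -0.56 with equal Gapdh. Sesn3 fell from 21.6 FPKM in PID- cells to 8.31 FPKM in PID+ cells (log2 change -1.28), so that all 3 sestrins had values below 0. Zmat1, on chromosome X, fell from 3.001 to 0.890, with a log2 change of -1.08, whereas Zmat3 was at 0.53. The change of Zmat1 was -0.63 with the median of its chromosome (-0.45) subtracted. That setting left 1 paralog 2-fold lower, beside 787 of all 21959 genes. In the Gadd45 family, Gadd45b stood at 56.3 FPKM in PID+ cells and 31.5 FPKM in PID- cells (log2 change 0.82), and Gadd45g had 41.07 and 41.00, against the fall of Gadd45a. With equal Gapdh the values were 0.21 for Gadd45b and -0.60 for Gadd45g. Phlda1, the most abundant paralog, had 124 and 77.4, and its log2 change of 0.67 was 0.052 with equal Gapdh.

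Genes often used to scale expression did not give the same scale. Of 8 such genes, none differed 2-fold, beside 3.31% higher and 3.77% lower among all genes. Of the 8, 4 had a log2 change above 0 and 4 below. The most abundant were Ppia (0.24), Gapdh (0.62) and Actb (0.41). The range ran from -0.86 for Hprt to 0.72 for Rplp0, both named after their values were seen. With the chromosome median subtracted, Hprt was at -0.41, Gapdh at 0.28 and Rplp0 at 0.71. With Gapdh set equal, Ppia was at -0.38 and Actb at -0.21. Several of these genes, Gapdh among them, have processed pseudogenes.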
